A study of Drosophila melanogaster with 4 samples.

Results

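The glutathione S-transferase (GST) family of Drosophila melanogaster was examined gene by gene on 4 whole-genome expression arrays. Members were the genes whose symbol on the array's platform annotation is a GST of the delta, epsilon, omega, sigma, theta or zeta class followed by a number, or Mgstl, the microsomal GST-like gene. This gave 35 of the 11981 genes on the array that carry a symbol of their own, measured by 38 probe sets: 11 delta, 13 epsilon, 3 omega, 1 sigma, 4 theta, 2 zeta and 1 microsomal gene. Where a gene had several probe sets, the one with the highest mean over the 4 arrays was used. RefSeq's Release 6 annotation of the fly holds 36 genes that meet the same symbol rule, and the remaining one, GstE8, was not analysed here.

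The arrays were made from wild-type Canton-S males, young adults of 1 to 2 days. They came from flies that were not exposed (control) and from flies kept for 24 h in the vapour of benzene, toluene or formaldehyde, with 1 array in each of the 4 groups. The sources used here state no vapour concentration, and the labels do not say how many flies were pooled or whether whole bodies were used. Markers of flight muscle, fat body, testis, accessory gland, midgut, Malpighian tubule and photoreceptors were all above background on all 4 arrays. No group was replicated, so nothing could be tested: every difference below is between 2 arrays, and the number of arrays limits its precision.

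GSTs join the tripeptide glutathione to electrophilic compounds, which makes these more soluble and ready for export; several also reduce peroxides or carry out isomerisations. In insects the delta and epsilon classes are large, lie in gene clusters and are known for insecticide resistance, whereas the omega, sigma, theta and zeta classes are shared with many animals and have narrower roles. In mammals the reactive oxidation products of benzene are among the substrates of GSTs. Formaldehyde reacts with glutathione by itself and is then oxidised by formaldehyde dehydrogenase. The question put by the design is which transcripts differ between exposed and unexposed flies.

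Values are the authors' log2 probe set values, so 1 log2 unit is 2-fold, and ratios are differences of these values. The array medians over all probe sets that are not array controls were 6.42 to 6.46. A gene was called detected between 2 arrays if its value on the array where it was higher was no lower than the median of that array. The background of an array, taken as the 95th percentile over 20 control probe sets whose target was not added, was 4.64 to 4.88. Probe sets differ in how strongly they bind, so levels of different genes are not compared. Of the 35 members, 33 lay above background on all 4 arrays. GstD4 (4.13 to 4.35) and GstD6 (3.87 to 4.05) lay below it on all 4, and their ratios enter no count or median below except where no filter is named.

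The toluene array held the family's largest departure from the control. The median log2 ratio of the 33 detected members was 0.24 (1.18-fold), against 0.01 for all 8140 detected genes, and 27 members were above 0, where the share of all detected genes above 0 was 51.5%. At least 25% higher (a log2 ratio of 0.32) were 10 of the 33, against 4.26% of all detected genes, and 4 were at least 1.5-fold higher, against 1.02%. GstD5 alone passed 2-fold (a log2 ratio of 1.01, and 0.99 under quantile scaling), against 0.283% of genes past 2-fold in either direction. None of the 33 was at least 20% lower (the same distance below 0), where 1.56% of all detected genes were. The 33 genes are also those above background on all 4 arrays, but the shares of all genes were taken under the median filter. Among the 10, GstD2, GstD8 and GstD10 were under the median on the control array and passed that filter through the toluene array.

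For benzene and formaldehyde the family's median stayed close to the control. On both arrays the share of members at least 25% higher was above that of all genes, though it rests on few genes. The benzene median was 0.05 over 32 detected members, against -0.02 for all detected genes, with 18 above 0 (42.9% of all); over the 19 members that reached the 75th percentile it was -0.02. A total of 3 members were at least 25% higher (2.88% of all), none at least 20% lower (3.96%) and none past 2-fold (0.43%). For formaldehyde the median was 0.03 over 31 detected members, against 0.01 for all, with 20 above 0 (52.3% of all). Of these 31, 5 were at least 25% higher (6.8% of all), 1 at least 20% lower (10.7%) and none past 2-fold (1.11%). Among these 5, GstD2 and GstD8 were under the median on the control array and passed the filter through the formaldehyde array. GstD8, among the 3 higher with benzene, passed it there through the benzene array. The robust SD of all detected genes' log2 ratios was 0.15 for benzene, 0.15 for toluene and 0.21 for formaldehyde.

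**Figure D1:**
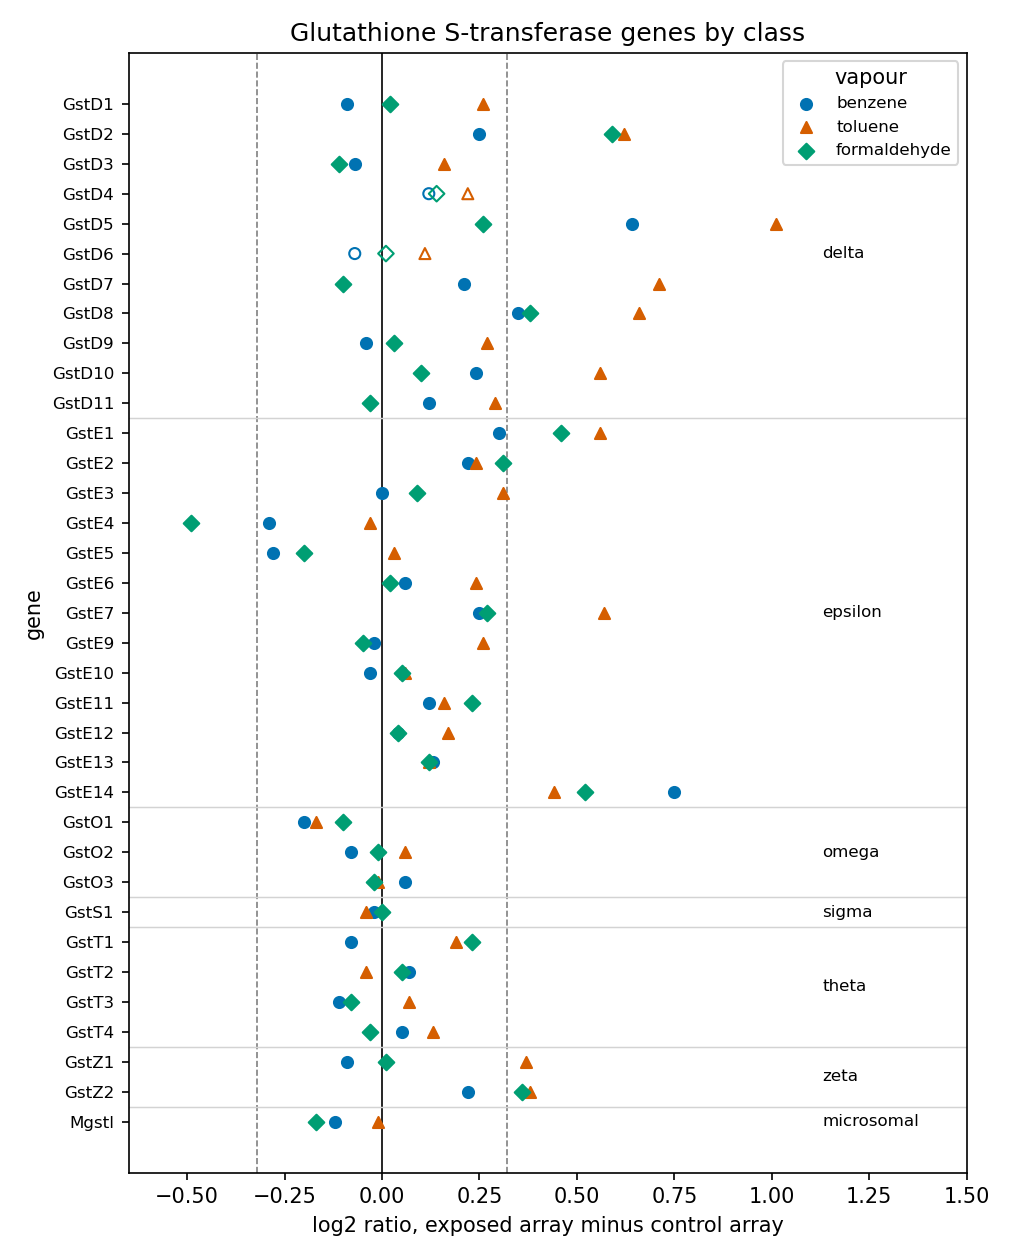
Log2 ratios of the 35 GST genes (vertical axis, grouped by class) on the benzene, toluene and formaldehyde arrays, each minus the control array (horizontal axis, log2 units). Dashed lines mark 25% higher and 20% lower, and open symbols mark GstD4 and GstD6, which lay below background on all 4 arrays. Toluene triangles of the delta class lie to the right of the benzene and formaldehyde symbols, up to 1.01 for GstD5, whereas omega, sigma and theta genes lie near 0.

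All 3 ratios use the same control array, so the arrays were also treated alike, by asking on which of the 4 each gene had its highest value. For 22 of the 33 members this was the toluene array, against 22.3% of 8250 genes that reached the median on at least 1 array. The control array held the highest value of 3 members, benzene that of 4 and formaldehyde that of 4. By class, the toluene array was highest for 9 of 9 delta genes, 8 of 13 epsilon genes, both zeta genes, 2 of 4 theta genes and 1 of 3 omega genes. The lowest value lay on the control array for 14 of the 33 members, against 29.4% of all genes. These 14 were higher than the control on all 3 exposed arrays, and 9 of them were epsilon genes.

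The 9 detected genes of the delta class were all above 0 on the toluene array, from 0.16 to 1.01, with a median log2 ratio of 0.56. That median depends on the filter: it was 0.46 with the filter on the mean over the 4 arrays, 0.29 with no filter and 0.26 for genes reaching the 75th percentile. The value of 0.56 is that of GstD10, which passed the filter through the toluene array alone. With benzene the class median was 0.16 (8 genes detected, 5 above 0) and with formaldehyde 0.03 (7 detected, 5 above 0). Of those above 0 with benzene, GstD2, GstD8 and GstD11 passed the filter through the benzene array. Likewise GstD2 and GstD8 passed it through the formaldehyde array. The benzene median was 0.12 with no filter and -0.07 for genes reaching the 75th percentile. The delta GSTs include GstD1, the classic fly enzyme linked to DDT breakdown.

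GstD5 had log2 values of 7.0 (control), 7.64 (benzene), 8.01 (toluene) and 7.26 (formaldehyde). All 3 exposed arrays were above the control, with toluene highest at 2.01-fold and benzene next, with a log2 ratio of 0.64. Its toluene ratio was the 20th highest of 8140 detected genes and its benzene ratio the 77th highest of 8134.

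GstD7 had values of 6.48 (control), 6.69 (benzene), 7.19 (toluene) and 6.38 (formaldehyde). The toluene array stood apart from the other 3, 1.63-fold above the control and 0.50 log2 units above the next highest, which is the widest such gap among the members. The formaldehyde array was the lowest, 0.10 log2 units under the control.

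GstD8 stood at 6.34, 6.69, 7.0 and 6.73 in the same order of arrays, so that all 3 exposed arrays were higher than the control, by 0.35 (benzene), 0.66 (toluene) and 0.38 (formaldehyde). GstD2 stood at 6.20, 6.45, 6.83 and 6.80; here toluene (0.62) and formaldehyde (0.59) were nearly alike and benzene lay between them and the control. GstD10 stood at 6.08, 6.32, 6.64 and 6.18, with a toluene ratio of 0.56. The median was reached by GstD10 on the toluene array alone. GstD2, GstD8, GstD10 and GstD11 were under the median on the control array, so that their toluene value is what let them pass the filter.

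The delta genes with values above 9 had smaller ratios. GstD1, which is widely used as a reporter of oxidative stress in flies, stood at 12.57 (control), 12.48 (benzene), 12.82 (toluene) and 12.58 (formaldehyde), a toluene ratio of 0.26. GstD9 stood at 9.50, 9.46, 9.76 and 9.53, with a toluene ratio of 0.27. GstD3, whose protein lacks the N-terminal stretch that holds the usual catalytic residue, stood at 9.16, 9.09, 9.32 and 9.05 (0.16). For each of these genes the toluene array was highest, and the control, benzene and formaldehyde arrays lay within 0.11 log2 units of each other. GstD11 was at 6.44, 6.56, 6.73 and 6.41, with a toluene ratio of 0.29.

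**Figure D2:**
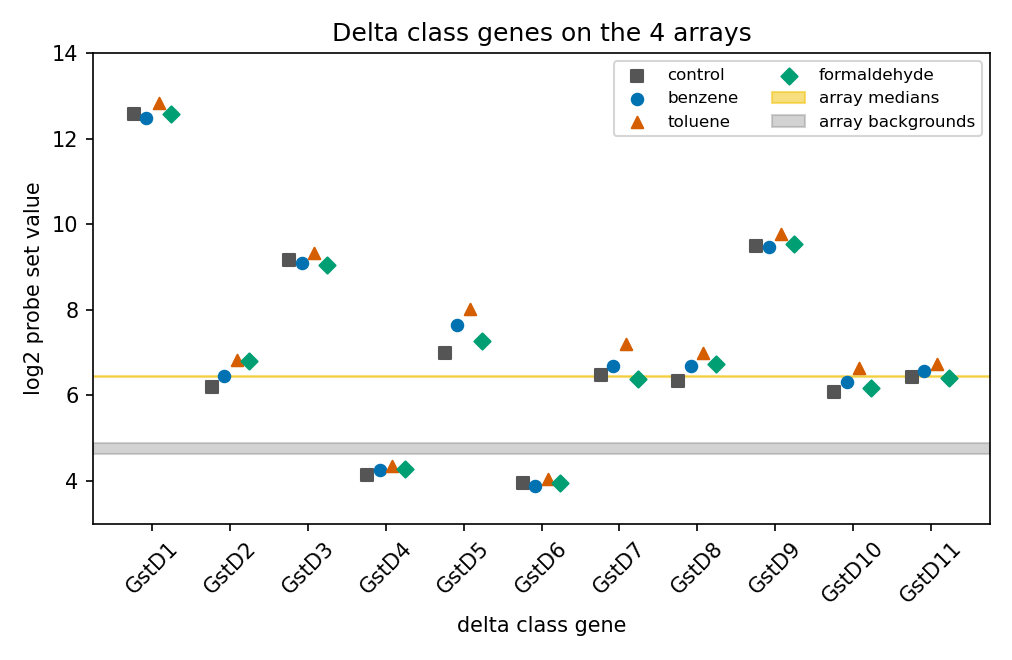
Log2 probe set values (vertical axis) of the 11 delta class genes (horizontal axis, in order of gene number) on the control, benzene, toluene and formaldehyde arrays, 1 point per array. The yellow band spans the array medians (6.42 to 6.46) and the grey band the array backgrounds (4.64 to 4.88). The toluene point is the highest of the 4 for each of the 9 genes above background, and GstD4 and GstD6 lie under the background band.

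In the epsilon class 12 of 13 genes were above 0 on the toluene array, with a median log2 ratio of 0.24 and a range from -0.03 to 0.57. Benzene gave a median of 0.06 with 9 of 13 above 0, and formaldehyde 0.09 with 10 of 13. Epsilon GSTs are the class in which a mosquito enzyme, GSTe2, is known to break down DDT.

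GstE7 had values of 9.21 (control), 9.47 (benzene), 9.78 (toluene) and 9.48 (formaldehyde). The toluene array was highest (a ratio of 0.57), with benzene and formaldehyde close together between it and the control. GstE1 stood at 8.11, 8.41, 8.68 and 8.57, in the same order of arrays, and all 3 exposed arrays were above the control, by 0.30, 0.56 and 0.46. GstE3 stood at 10.77, 10.78, 11.08 and 10.86, with toluene 1.24-fold above a control and benzene array that had nearly the same value. GstE9 (11.60, 11.59, 11.86 and 11.55) also had its highest value with toluene, 0.26 above the control.

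GstE14, known as noppera-bo and needed for ecdysteroid hormone synthesis in the fly, had its highest value with benzene. Its values were 6.90 (control), 7.65 (benzene), 7.34 (toluene) and 7.42 (formaldehyde). All 3 exposed arrays were above the control, and the benzene ratio of 0.75 ranks 55th of 8134 detected genes. With toluene it was at 0.44 and with formaldehyde at 0.52.

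GstE4 and GstE5 had the lowest epsilon ratios on the benzene and formaldehyde arrays. GstE4 stood at 8.06 (control), 7.77 (benzene), 8.02 (toluene) and 7.57 (formaldehyde); its formaldehyde ratio of -0.49 was the only ratio of the family at least 20% below the control, and ranks 77th from the lowest of 8165 genes. GstE5 stood at 7.28, 6.99, 7.31 and 7.08, so that benzene (-0.28) and formaldehyde (-0.20) were lower and toluene (0.03) near the control.

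The other epsilon genes differed less. GstE2 was at 0.22 (benzene), 0.24 (toluene) and 0.31 (formaldehyde), and GstE11 at 0.12, 0.16 and 0.23, with formaldehyde highest for both. GstE6 was at 0.06, 0.24 and 0.02. GstE12, GstE13 and GstE10, whose values spanned 0.17, 0.13 and 0.09 log2 units over the 4 arrays, had toluene ratios of 0.17, 0.12 and 0.06.

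Gene order was compared with these ratios for both clusters. In RefSeq's annotation the 11 delta genes lie together on chromosome arm 3R, in the order GstD10, GstD9, GstD1, GstD2, GstD3, GstD4, GstD5, GstD6, GstD7, GstD8 and GstD11, with at most 1 other gene between neighbours. The log2 ratios with toluene along this order were 0.56, 0.27, 0.26, 0.62 and 0.16, then 1.01 for GstD5 and 0.71, 0.66 and 0.29 for the last 3, with GstD4 and GstD6 below background. The 3 highest ratios, of GstD5, GstD7 and GstD8, follow each other with only GstD6, below background, among them. GstD9 and GstD1 are neighbours with lower ratios, and GstD2 lies between GstD1 and GstD3, which are both lower.

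In the epsilon cluster on arm 2R, 10 genes run in the order GstE10, GstE1, GstE2, GstE3, GstE4, GstE5, GstE6, GstE7, GstE8 and GstE9. The low pair GstE4 and GstE5 are neighbours in the middle of it, between GstE3 (0.31 with toluene) and GstE6 (0.24). GstE11, GstE12, GstE13 and GstE14 lie elsewhere on the same arm. Near-identical copies can share probes, so values of neighbouring paralogs may not be fully separate; no GST probe set of the delta or epsilon class carries the array's suffix for probes shared between transcripts of several genes.

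**Figure D3:**
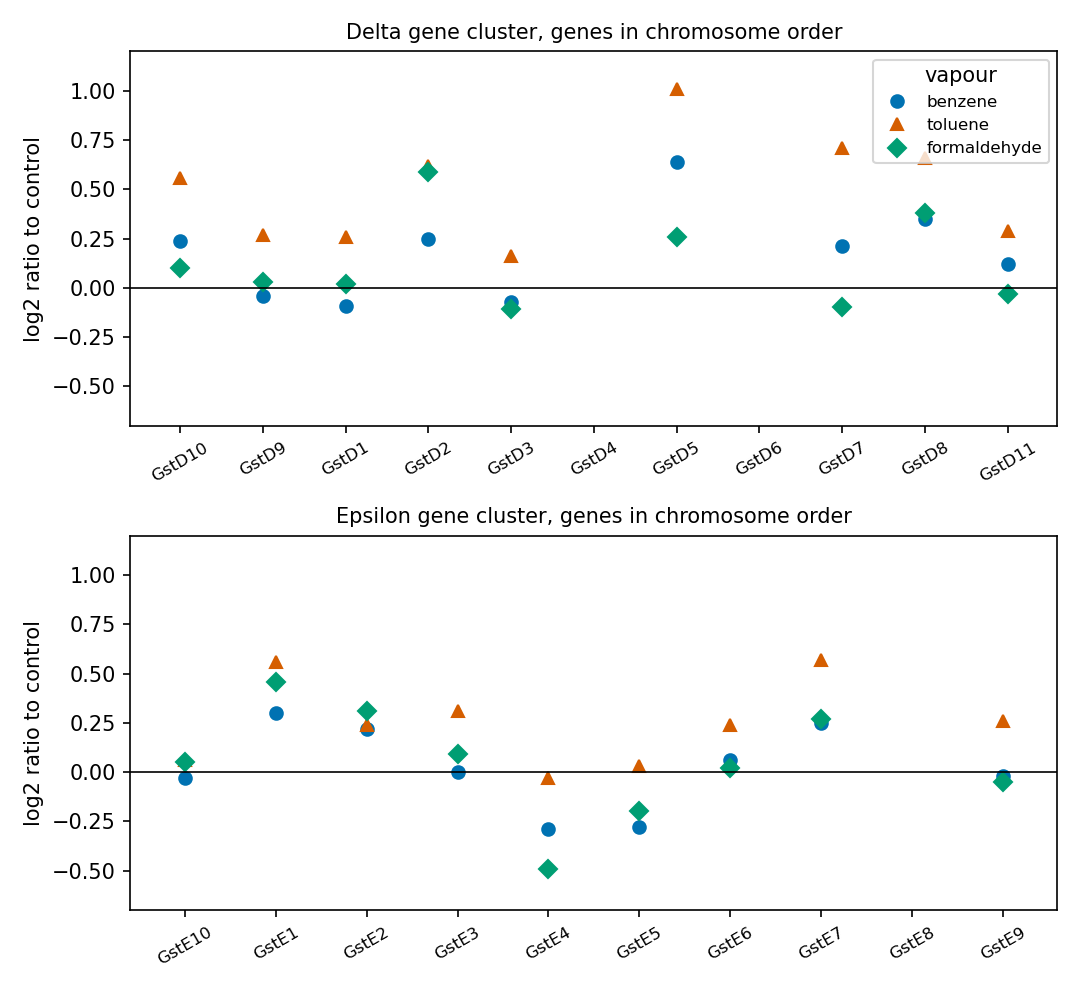
Log2 ratios to the control (vertical axis) of the genes of the delta cluster (upper panel) and of the epsilon cluster (lower panel), in their order along the chromosome (horizontal axis, not to scale), for benzene, toluene and formaldehyde. GstD4 and GstD6 (below background) and GstE8 (not analysed) have no points. GstD5 has the highest toluene point, 1.01, and GstE4 the lowest formaldehyde point, -0.49.

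Both zeta genes were at least 25% higher with toluene. Zeta GSTs act in tyrosine breakdown as maleylacetoacetate isomerases. GstZ1 stood at 7.02 (control), 6.93 (benzene), 7.39 (toluene) and 7.03 (formaldehyde); the toluene array stood 0.36 above the next highest and the other 3 were close together. GstZ2 stood at 6.73, 6.95, 7.11 and 7.09, above the control on all 3 exposed arrays. The toluene ratios of the zeta pair were 0.37 and 0.38. The genes are neighbours on arm 3R.

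The omega, sigma and theta genes of the symbol rule stayed within 0.23 log2 units of the control on all 3 arrays. Omega GSTs reduce dehydroascorbate and mixed disulfides. The 3 omega members had medians of -0.08, -0.01 and -0.02 for benzene, toluene and formaldehyde. An omega-class gene outside the symbol rule, se, was higher than the control on all 3 (0.39, 0.33 and 0.44). GstO1 was lower on all 3 (-0.20, -0.17 and -0.10). GstS1, the sigma GST that is abundant in flight muscle and acts on lipid peroxidation products, stood at 13.51, 13.50, 13.47 and 13.51. It had the smallest range of the family, 0.04 log2 units. Such bright probe sets can be near the top of the array's scale, whose highest values were 14.45 to 14.48. By the suffix of its identifier, the only probe set of GstS1 can bind transcripts of more than 1 gene. Of the theta genes, GstT1 was highest with formaldehyde (0.23) and toluene (0.19) and lower with benzene (-0.08), while GstT2, GstT3 and GstT4 lay between -0.11 and 0.13.

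Mgstl, which encodes the membrane-bound enzyme, had probe sets that disagreed. The brighter one stood at 12.18 (control), 12.06 (benzene), 12.17 (toluene) and 12.01 (formaldehyde), with a toluene ratio of -0.01. Its probes can bind transcripts of more than 1 gene, by the suffix of its identifier. The other stood at 8.46, 8.35, 8.78 and 8.68, with toluene at 0.32 and formaldehyde at 0.22, both above the control, where the brighter probe set had formaldehyde at -0.17. GstO2 also had a pair, at 0.06 and -0.13 with toluene. The second probe set of GstE9 lay below background on all 4 arrays.

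**Figure D4:**
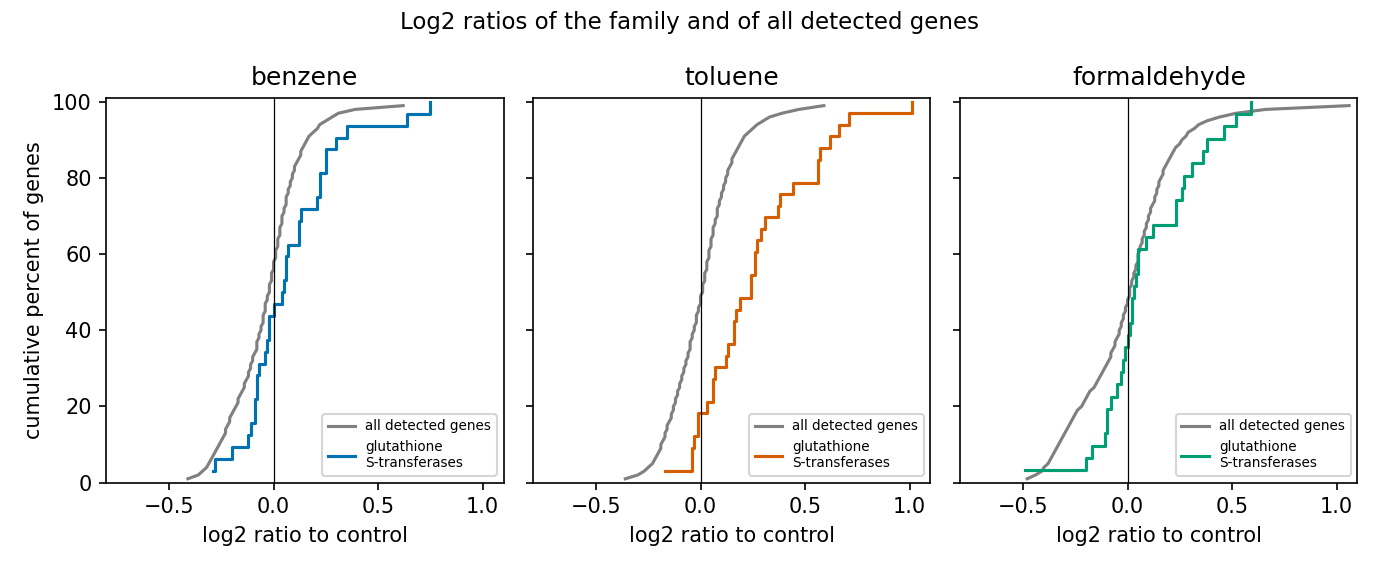
Cumulative percent of genes (vertical axis) at or below a given log2 ratio to the control (horizontal axis) for the detected GST genes (coloured steps) and for all detected genes from the 1st to the 99th percentile (grey line), for benzene, toluene and formaldehyde. The toluene steps lie to the right of the grey line over their whole course, around a median of 0.24; for benzene and formaldehyde the medians of 0.05 and 0.03 lie close to it.

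Toluene is benzene with a methyl group added. The 2 arrays were set against each other, both after 24 h, with doses that the sources used here do not state. The family's median log2 ratio of toluene over benzene was 0.18, against 0.04 for all 8126 detected genes. Of 33 members 28 were above 0, and so were 65.6% of all genes, a share that was 51.9% under quantile scaling, when 26 members were above 0. At least 25% higher with toluene were 5 members (2.81% of all): GstD7 (0.50), GstZ1 (0.46), GstD2 (0.37), GstD5 (0.36) and GstD1 (0.35). All 9 delta genes were higher with toluene, with a median of 0.32. That value is the ratio of GstD10, which passed the filter through the toluene array alone. Over all settings the delta median lay from 0.30 to 0.33. GstE14 lay on the other side, at -0.31. With 1 array each, no interval of these differences can be given.

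Formaldehyde over toluene had a family median of -0.16, against -0.02 for all genes. Below 0 were 25 of 33 members (55.6% of all), and 5 were at least 20% lower (3.18% of all), led by GstD7 (-0.80) and GstD5 (-0.75), with GstD10 (-0.47), GstE4 (-0.46) and GstZ1 (-0.36). GstD7 and GstD10 were under the median on the formaldehyde array and passed the filter through the toluene array. No delta gene was higher with formaldehyde than with toluene. Formaldehyde over benzene had a median of 0.02, the same as for all genes, which turned to -0.01 when arrays were centred on their medians, and 18 of 32 members were above 0 (54.7% of all; under quantile scaling 17 of 32, and 43.5% of all). Here GstD5 (-0.38) and GstD2 (0.34) were the members furthest apart. These comparisons share arrays with those above and are not independent of them.

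The members at least 25% higher with toluene were mostly dim. Of the 13 detected members with a mean under 8 over the 4 arrays, 8 were at least 25% higher, against 3.71% of all genes in that range. From 8 to 10 there were 2 of 12 (4.23% of all), and at 10 or more 0 of 8 (5.73%). In the range under 8, GstD2, GstD8, GstD10 and GstD11 passed the filter through the toluene array, being under the median on the control array. Of these, all but GstD11 were at least 25% higher, so the filter itself favoured dim members that were high with toluene. The medians of the members in these ranges were 0.38, 0.14 and 0.15, and the robust SD of all genes was 0.15, 0.15 and 0.14, so all genes were not more scattered in the dim range. When only genes reaching the 75th percentile were kept, 15 of 19 members were above 0 with toluene (50.3% of all such genes) and 2 were at least 25% higher (5.0% of all), namely GstE1 and GstE7. Just inside and just outside the 25% line with toluene lay GstZ1 (0.37) and GstE3 (0.31).

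Genes around the family were read from several lists, counted together. The lists covered GST-like proteins outside the symbol rule, glutathione synthesis and breakdown, and the thioredoxin and glutaredoxin system. Enzymes listed as glutathione-using, conjugate export and regulators made up the rest. Of the listed genes 43 were on the array. At least 25% higher were 2 of 35 detected ones with benzene, 2 of 34 with toluene and 5 of 35 with formaldehyde, and 1, 0 and 4 were at least 20% lower. The shares of all detected genes in the same order were 2.88%, 4.26% and 6.8% higher and 3.96%, 1.56% and 10.7% lower, against which these counts of a few genes are to be read. None of these genes passed 2-fold with any of the 3 vapours. For glutathione synthesis and breakdown alone, 0 of 6 detected genes were at least 25% higher or 20% lower with any vapour. Gclc and Gclm, the subunits of the enzyme that limits glutathione synthesis, were at -0.07 and 0.00 with toluene, and Trxr1, the thioredoxin reductase that keeps fly glutathione reduced, was at 0.07. Fdh, for formaldehyde dehydrogenase, had a log2 value of 9.99 on both the control and the formaldehyde array. The regulators cnc (the fly counterpart of Nrf2, which drives GST genes under oxidative stress) and its inhibitor Keap1 were each at -0.03 with toluene. MRP, a transporter of glutathione conjugates, was at 0.15, 0.28 and 0.23 for benzene, toluene and formaldehyde.

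The 2 higher with toluene were se (sepia), an omega-class GST of eye pigment synthesis that lies between GstO3 and GstO2, at 0.39, 0.33 and 0.44 for benzene, toluene and formaldehyde, and Pdh at 0.75, 0.50 and 0.50. Pdh encodes a dehydrogenase of photoreceptor pigment cells and is not known to use glutathione. On the formaldehyde array Hr96, a nuclear receptor of the response to foreign compounds, stood at 0.54, with EcR (0.41) and puc (0.34) also at least 25% higher. EcR, at 6.20 on the control array, was under the median there and passed the filter through the formaldehyde array. Lower there were Grx1t (-0.49), Trxr2 (-0.38), TrxT (-0.34) and CG9393 (-0.33); TrxT is a thioredoxin of the male germ line.

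Tissue markers also differed between the arrays. In bulk RNA, fewer cells of a type and less RNA per cell cannot be told apart. All 8 fat body markers were above 0 with toluene (51.5% of all detected genes). Fbp1, Fbp2, Lsp2 and fit, 4 of them, were at least 2-fold higher, where 0.283% of all genes passed 2-fold in either direction. The others were at 0.03 to 0.24. With formaldehyde 7 of the 8 were above 0 (52.3% of all detected genes). At least 2-fold higher there were 3, Fbp1 (2.49), Fbp2 (2.42) and Lsp2 (1.02), where 1.11% of all genes passed 2-fold in either direction. The marker fit was at -0.35 with formaldehyde. The summed fat body log2 level was 14.59 (control), 14.51 (benzene), 15.05 (toluene) and 14.84 (formaldehyde). With benzene the sum was lower although 5 of the 8 were above 0, Fbp1 at 0.99 and Fbp2 at 1.03, with Pepck1 at -0.57. All 13 testis markers were below 0 on each exposed array, with summed levels of 15.99, 15.78, 15.86 and 15.70. Of all detected genes, 42.9%, 51.5% and 52.3% were above 0 with benzene, toluene and formaldehyde. Summed midgut levels were 15.94, 16.02, 15.72 and 15.57, but single midgut markers went both ways. Of 13 detected ones, 8 were above 0 with benzene, 4 with toluene and 3 with formaldehyde. With benzene Jon99Ci was at 0.75, whereas Mal-A7 was at -1.02 and Vha100-4 at -0.84. With toluene Jon65Aiv was at -0.62, whereas LManII was at 0.38. Summed flight muscle levels were 16.30, 16.35, 16.32 and 16.36. The remaining summed levels, in the same order of arrays, were 16.29, 16.21, 16.17 and 16.08 for the accessory gland, 14.22, 14.18, 14.26 and 14.18 for the Malpighian tubule, and 13.38, 13.65, 13.42 and 13.61 for photoreceptors. In the order benzene, toluene and formaldehyde, 9, 6 and 9 of 9 photoreceptor markers were above 0, and 0, 1 and 0 of 11 accessory gland markers. Flight muscle had 7, 5 and 7 of 10 above 0, and the Malpighian tubule 3, 5 and 3 of 9. The part of fat body, testis, midgut or other tissue RNA in the family's values was not tested. The difference between the 3' and 5' control probe sets, a sign of RNA quality, was 0.93 to 0.99 log2 units for GAPDH on the 4 arrays and 1.51 to 1.63 for eIF-4a; for actin it was 0.83 on the formaldehyde array and 1.09 to 1.16 on the others.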

How the data were processed

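The values used are on a log2 scale, as the authors deposited them, in 1 table with a column per array. The submitters' processing notes list RMA, MAS5 and Affymetrix Expression Console 1.1 without a role, so the normalization of the table is not stated; near-equal quantiles across arrays are what RMA gives, and RMA compresses ratios of dim probe sets. Per the labels' protocols, 300 ng of total RNA was amplified and biotin-labelled by priming from the 3' end. The genome build is not given in the sources used here.

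Of 18769 probe sets that are not array controls, 13646 had 1 gene symbol in the platform annotation, 402 had several and 4721 none. All 35 members matched RefSeq's Release 6 annotation by gene identifier, which was used for names and gene order, and no coordinates are given. No sequence of the members is shown. With 1 array per group, sizes, counts and medians were computed and no test; p-values and intervals could not be given. Counts use size rules of 2-fold, 1.5-fold and 25% higher or 20% lower, beside the same share over all detected genes. Summed marker levels are log2 of the summed unlogged values.

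The members, the gene lists and the size rules were chosen with earlier results of these data known. By the rule for named genes any member could be named, and listed genes outside the family at least 25% higher or 20% lower; Gclc, Gclm, Trxr1, Fdh, cnc, Keap1 and MRP were named beside these for their role, after their values were seen. Other settings were 3 filters on dim probe sets (none, a stricter one and one on the mean), 2 scalings and 2 rules for the probe set per gene. The counting was tested on simulated data. Python 3.11.15, pandas 2.3.3 and numpy 2.4.6 were used.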

Additional observations from a re-analysis of the deposited data

How the results depend on the processing

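No paired analysis was possible because each group holds 1 array. For the same reason no replicate could be left out. Of 308 summary values recomputed under 6 other settings and a further 1 chosen after seeing the data, 278 kept their direction and size (counts within 1.5 times, medians within the robust SD of all genes, those of 0.00 having no direction). So did all 188 values of the single genes that were at least 25% higher or 20% lower, where the gene passed the filter. Most of these could not differ. Filters do not change a gene's ratio, and each of these genes had 1 probe set, without the suffix for shared probes. Only the 2 scalings could have moved a ratio. The delta median for formaldehyde over benzene was 0.00, and it lay from -0.03 to 0.07 over the 7 settings. With the filter at the 75th percentile, which leaves 18 or 19 members and drops most dim delta genes, members above 0 numbered 8 (benzene; 43.4% of all genes under this filter), 15 (toluene; 50.3%), 11 (formaldehyde; 50.2%), 15 (toluene over benzene; 67.1%), 10 (formaldehyde over benzene; 50.9%) and 3 (formaldehyde over toluene; 41.0%). Those at least 25% higher numbered 0, 2, 1, 1 and 0 for the first 5 of these, and those lower 0 for formaldehyde over control, over benzene and over toluene. Members past 2-fold with toluene then numbered 0, as under quantile scaling. Under that filter the benzene medians turned to -0.02 for the family and -0.07 for the delta class, the delta median with toluene came to 0.26 (0.29 with no filter), the toluene array was highest for 13 of 19 members, and the control array lowest for 6. With arrays centred on their medians, formaldehyde over benzene turned to -0.01 for the family and -0.01 for the epsilon class, with 0 members at least 25% higher and 2 at least 20% lower; at least 25% higher were 0 under quantile scaling and 2 with probe sets not shared between genes. Toluene over benzene had 1 member at least 20% lower under either scaling. With the added filter, on the mean over the 4 arrays, 26 of 32 members were above 0 with toluene and 9 at least 25% higher. Beyond the smaller set of genes under the stricter filter, the cause of these shifts was not tested. Signal over background limits GstD4 and GstD6.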

Other observations

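The genes of the family that stood higher than the control on all 3 exposed arrays were GstD2, GstD5, GstD8, GstD10, GstE1, GstE2, GstE3, GstE6, GstE7, GstE11, GstE12, GstE13, GstE14 and GstZ2, 14 of 33, beside 29.4% of 8250 genes. A further 5 (GstD3, GstE5, GstE9, GstO2 and GstT3) were above the control with toluene and below it with both other vapours, a pattern held by 6.16% of all genes. Lower on all 3 arrays were GstE4, GstO1 and Mgstl, 3 of 33, where 32.9% of all genes were. Mgstl and GstO2 enter these counts by their brighter probe sets. The other Mgstl probe set was above the control with toluene (0.32) and formaldehyde (0.22), and the other GstO2 probe set was below it with toluene (-0.13). The toluene value exceeded the next highest of the other 3 arrays by at least 25% for 3 members, GstD7 (0.50 log2 units), GstD5 (0.36) and GstZ1 (0.36), and for 0.933% of all genes.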
